A study of Mus musculus with 12 samples.

Results

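The genes described here are 9 genes of the osteoblast and chondrocyte lineages, Runx2, Sp7, Sox9, Sox5, Alpl, Phex, Spp1, Acan and Tnfrsf11b, taken by name from the 21001 genes with a count in any library. All 9 had counts, and 6 of them passed the filter of at least 1 FPKM in at least 3 libraries. FPKM is a level that corrects fragment counts for transcript length and library size. The 12 RNA-seq libraries came from sorted bone marrow stromal cells of C57BL/6 mice, given in the labels as wild type and carrying green fluorescent protein (GFP). TUMOR was made of GFP cells taken back from the inoculation site of mice that had received a co-injection of a murine tumour line, Lewis lung carcinoma, marked with a red fluorescent protein. BM was made of GFP cells from the marrow of such co-injected, tumour-bearing mice, and HOMING of GFP cells from the marrow of mice given the stromal cells alone under the skin. NC was made of the same kind of GFP cells in primary culture. Each group had 3 libraries. The labels give neither age nor sex, number of donors, sort gate or purity, and do not say whether replicates were separate animals or cultures. The p-values therefore measure the spread between these libraries, which may be technical.

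Osteoblasts and chondrocytes both descend from mesenchymal progenitors, the cells that marrow stromal cultures are used to model. Runx2 starts the osteoblast programme and Sp7, also called osterix, acts after it, while Sox9, with Sox5 and Sox6 as partners, drives the genes of cartilage matrix. Bone mineral then forms under enzymes such as alkaline phosphatase, and osteoblasts restrain bone resorption by secreting osteoprotegerin, a soluble decoy for RANKL, the signal that osteoclasts need.

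Library totals lay between 43232145 and 46166519 expected counts, so depth differed little. Summed FPKM of 13 stromal markers was 2380 to 2430 in TUMOR, 1350 to 1440 in BM, 1860 to 1930 in HOMING and 1740 to 1950 in NC, with none of them at 0 in all libraries of a group, although Thy1, Nt5e and Lepr stayed under 1 FPKM. Vim made up most of each sum, at 1926 ± 24.5 FPKM in TUMOR, 866 ± 45.5 in BM, 1438 ± 42.3 in HOMING and 1273 ± 72.7 in NC. By group mean Cxcl12 and Ly6a were also lowest in BM, whereas Pdgfra, Pdgfrb, Cd44 and Vcam1 were highest there. Of the 10 stromal markers tested, 3 were called higher and 0 lower in BM against NC, beside 7.93% and 3.57% of all tested genes. Markers of other cells moved with the groups. Summed neutrophil markers reached 2670 to 3960 FPKM in HOMING, against 45.9 to 48.6 in TUMOR, 412 to 436 in BM and 348 to 445 in NC. Outside HOMING these sums were mostly Lcn2, which averaged 45.2 ± 2.55 FPKM in TUMOR, 369.8 ± 12.4 in BM and 385 ± 50.7 in NC. S100a8, a granulocyte calcium-binding protein gene, averaged 0.68 ± 0.365 FPKM in TUMOR, 21.3 ± 3.03 in BM, 834 ± 191 in HOMING and 0.577 ± 0.208 in NC, and 9 of the 12 markers were called higher in BM against NC. The part of blood cells in the differences of BM or HOMING from other groups was not tested. Summed erythroid markers reached 2110 to 3470 FPKM in HOMING, against at most 3.53 in any other library. The epithelial list summed to 69.6 to 115 FPKM in TUMOR, carried by Krt8 and Krt19 with Epcam near 0, against 6.32 to 6.96 in BM, 5.91 to 6.49 in HOMING and 1.95 to 4.26 in NC. In a bulk library, fewer cells of a type and less RNA per cell cannot be told apart. Within groups, NC replicate 3, TUMOR replicate 1 and HOMING replicate 3 stood apart from the other two libraries of their group over all genes. Results of the 9 genes that rest on them are given with and without them, and values of other genes are given with all libraries. Leaving out HOMING replicate 3 changed no call of a member.

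Upstream sequence is shown for the members on which the results below turn. They are Spp1, the most abundant member and a known Runx2 target, Phex, the member that differed between most groups, and Acan, a known Sox9 target with a large difference from cultured cells. Each line holds the 250 bases before a start listed in a RefSeq promoter table of build GRCm38.p6, 5′ to 3′ on the gene's strand. GENCODE M21 starts the deposited Acan transcript further downstream, at 79053483 on chromosome 7, so the Acan window does not adjoin that start. The authors' files use mm8 and give no positions that were used here. Capitals mark the RUNX core AACCACA and the SOX core ACAAAG or its reverse complement CTTTGT.
Spp1, chr5:104434861-104435110, plus strand: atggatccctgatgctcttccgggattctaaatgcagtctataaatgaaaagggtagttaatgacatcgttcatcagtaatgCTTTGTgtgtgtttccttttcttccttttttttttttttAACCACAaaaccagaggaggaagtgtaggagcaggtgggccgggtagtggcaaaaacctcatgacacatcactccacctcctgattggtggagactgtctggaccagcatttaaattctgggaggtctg
Phex, chrX:157415287-157415536, minus strand: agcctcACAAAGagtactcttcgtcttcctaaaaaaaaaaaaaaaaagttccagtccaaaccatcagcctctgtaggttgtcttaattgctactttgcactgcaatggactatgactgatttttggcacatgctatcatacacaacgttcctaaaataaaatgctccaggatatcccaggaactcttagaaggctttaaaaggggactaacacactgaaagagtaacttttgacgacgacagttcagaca
Acan, chr7:79052976-79053225, plus strand: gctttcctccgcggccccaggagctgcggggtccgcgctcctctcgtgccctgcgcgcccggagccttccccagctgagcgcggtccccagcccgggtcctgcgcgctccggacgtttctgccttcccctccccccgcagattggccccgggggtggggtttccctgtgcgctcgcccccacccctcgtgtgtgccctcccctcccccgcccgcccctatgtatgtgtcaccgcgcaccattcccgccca
The Spp1 window shown held 1 RUNX core that began 129 bases before the start and 1 SOX core that began 168 bases before it. A further Spp1 window in the table, chr5:104435942-104436191, held a SOX core 243 bases before its start. Phex held 1 SOX core, 244 bases before its start, and Acan held neither motif and had a GC content of 74.4%. Both motifs were searched on both strands (AACCACA or TGTGGTT, and ACAAAG or CTTTGT) after the members' values were known, and no match overlapped another. Of all 32851 windows of 250 bases in the table, 4.4% held the RUNX core and 16.5% held the SOX core. The table had sequence for 6 of the 9 members. Both Alpl windows held a SOX core, Runx2 held a RUNX core 81 bases before its RefSeq-listed start, and Sox5 held neither motif. GENCODE M21 places the distal Runx2 start at 44814797, inside the Runx2 window (chr17:44814628-44814877, minus strand). The Runx2 core lies downstream of that GENCODE start. Transcripts with the distal start took at most 8.96% of the Runx2 counts of a library. The Sox5 window does not adjoin the starts of the deposited RefSeq transcripts of Sox5. Sp7, Tnfrsf11b and Sox9 had no entry. These matches describe letters only.

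**Figure D1:**
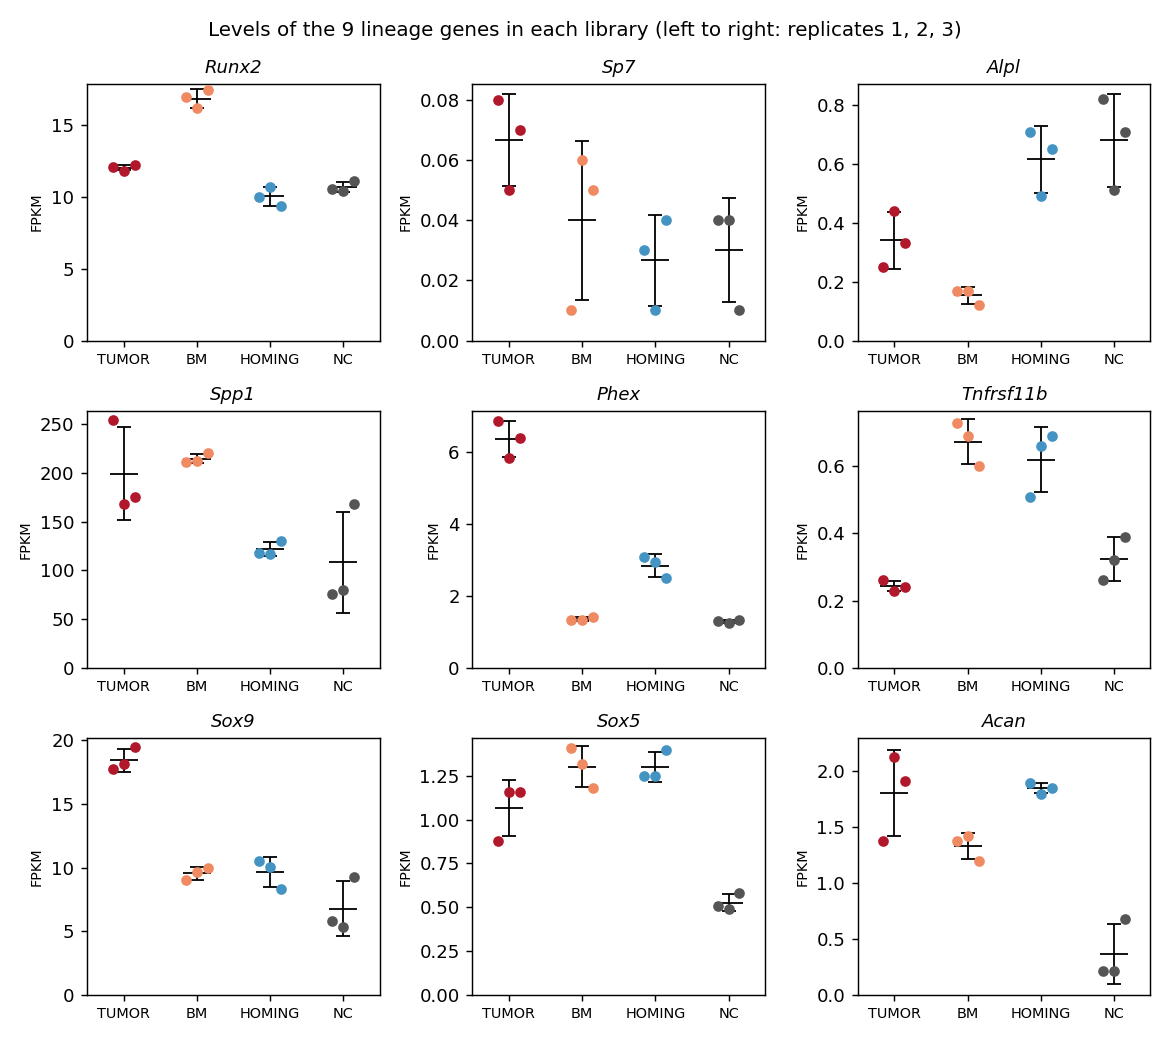
Levels of the 9 lineage genes, with 1 panel per gene: FPKM on the vertical axis from 0, groups on the horizontal axis, points for replicates 1, 2 and 3 from left to right, and horizontal bars for the mean and SD (n = 3). Runx2 peaks in BM, Sox9 and Phex in TUMOR, Acan and Sox5 are lowest in NC, and Sp7, Alpl and Tnfrsf11b stay under 1 FPKM in every library.

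Runx2, Sox9 and Spp1 were above 5 FPKM in all 12 libraries, Sp7, Alpl and Tnfrsf11b lay under 1 FPKM in all 12, and of the 6 members that passed the filter Phex, Sox9, Sox5 and Acan changed. Alpl and Tnfrsf11b, tested with no filter, also had calls and are described further on. A gene was called changed at an adjusted p under 0.05 in edgeR's quasi-likelihood test and at least a 2-fold difference. By that rule 3 members rose in TUMOR against NC (Phex, Sox9 and Acan), where 16.4% of the 12314 tested genes were called and 9.75% rose. In BM against NC 2 members rose (Sox5 and Acan), beside 11.5% of all tested genes called and 7.93% that rose. HOMING against NC gave 3 risers (Phex, Sox5 and Acan), beside 14.3% of all genes called and 9.64% that rose. Sox5 and Acan lay under 1 FPKM in every NC library, so they passed the filter through the groups in which they were higher. Such selection favours a rise against NC. Restricting the test to genes averaging 1 FPKM or more in NC, a choice made after seeing the data, removed both. The members then called were 2 in TUMOR against NC (Phex and Sox9), 0 in BM against NC and 1 in HOMING against NC (Phex). Among the groups taken from mice, Phex was the one called of the 6 members that passed the filter. It rose in TUMOR against HOMING, where 10.8% of all genes were called and 4.42% rose. It also rose in TUMOR against BM, where 14.2% were called and 6.95% rose. It fell in BM against HOMING, where 10.4% were called and 6.68% fell. With 6 members tested, these counts are too small to be compared with the shares of all genes. The comparisons share libraries, NC standing in 3 of them, so they do not repeat each other independently.

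**Figure D2:**
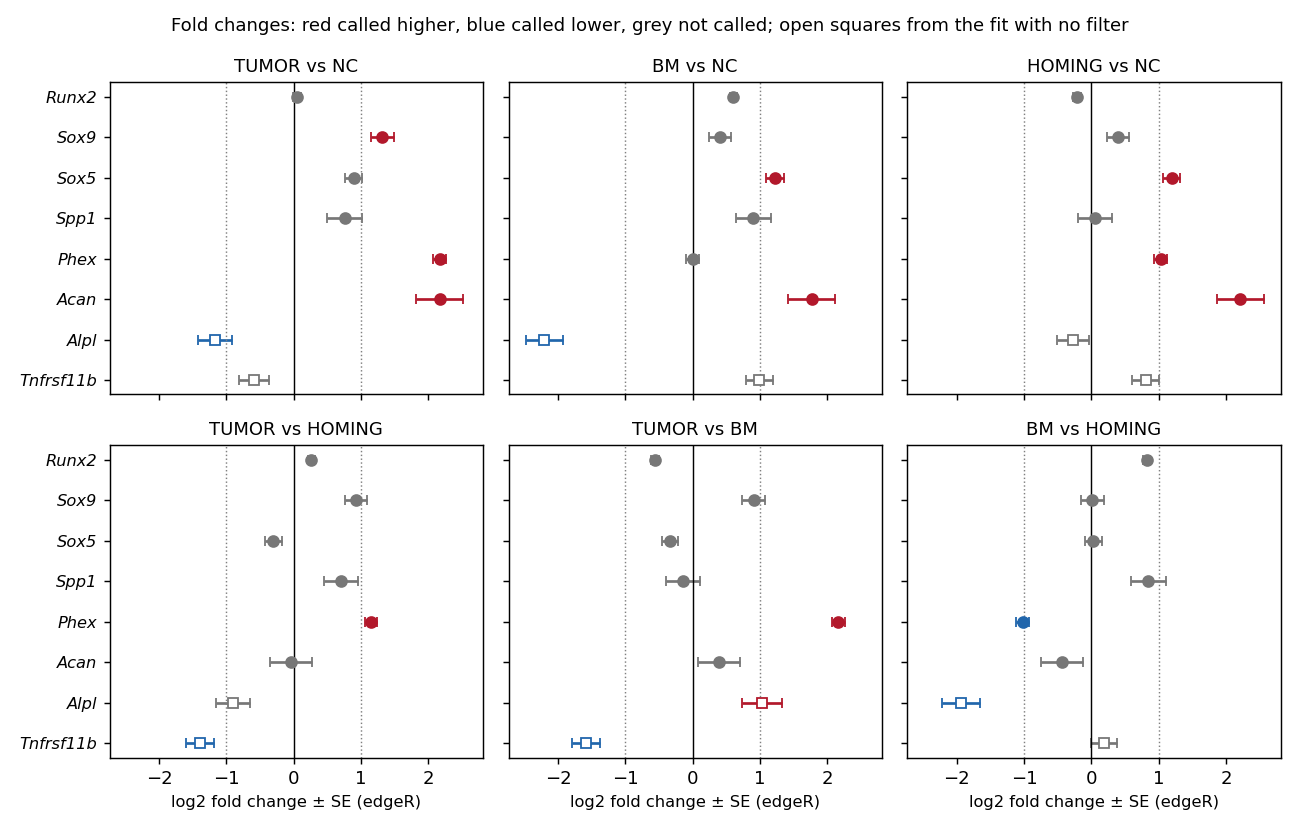
Fold changes of 8 members in the 6 comparisons, as log2 fold change ± SE from edgeR, with dotted lines at the 2-fold minimum. Circles come from the filtered fit and open squares (Alpl, Tnfrsf11b) from the fit with no filter; red was called higher, blue called lower and grey not called. Phex leaves the dotted band in 5 of the 6 panels, Acan in the 3 panels against NC, and Runx2 in none.

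Runx2, the transcription factor that osteoblast formation requires, was highest in BM. Its levels were 12.1, 11.8 and 12.2 FPKM in TUMOR, 17.0, 16.2 and 17.4 FPKM in BM, 10.03, 10.7 and 9.40 FPKM in HOMING and 10.5, 10.4 and 11.1 FPKM in NC. The 3 BM libraries lay above all others and the 3 TUMOR libraries above both remaining groups, while HOMING and NC overlapped. The log2 fold change of Runx2 was 0.82 ± 0.06 (SE) in BM against HOMING (edgeR adjusted p = 9.68e-08), 0.61 ± 0.06 in BM against NC (1.29e-06) and -0.56 ± 0.06 in TUMOR against BM (1.94e-06). All were under 2-fold, so Runx2 was called in no comparison even though these 3 differences exceeded the spread between replicates. In TUMOR against NC its log2 fold change was 0.05 ± 0.06, with an adjusted p of 0.454.

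Runx2 has a distal and a proximal start, which give proteins with different first residues. The deposited transcripts comprised 4 of each class, and in GENCODE M21 on GRCm38 the outermost starts of the classes lie on chromosome 17 at 44814797 and 44736648 on the minus strand, 78149 bases apart. Transcripts with the distal start took 8.96, 3.96 and 2.94% of the Runx2 counts in TUMOR, 1.49, 0 and 4.22% in BM, 0, 0.939 and 2.19% in HOMING and 0.347, 0 and 3.11% in NC. Counts of the proximal class made up the bulk of Runx2 in each library. The distal share of the TUMOR libraries lay above that of HOMING without overlap, and the other pairs of groups overlapped. TUMOR replicate 1 had the highest distal share, and it is one of the libraries that stood apart. How the authors divided reads between transcripts that share exons is not stated in the labels, so these shares were not tested.

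Sp7, the zinc finger factor that acts after Runx2 in osteoblast formation, was close to the lowest listed value in all groups. It had 0.08, 0.05 and 0.07 FPKM in TUMOR, 0.01, 0.06 and 0.05 FPKM in BM, 0.03, 0.01 and 0.04 FPKM in HOMING and 0.04, 0.04 and 0.01 FPKM in NC. These levels rested on 1 to 8 counts per library, and TUMOR lay at the upper end with an overlap with BM. In the fit with no filter, the largest difference of Sp7 was a log2 fold change of 1.26 ± 0.65 in TUMOR against HOMING (edgeR adjusted p = 0.151), so no difference was detectable at this depth.

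Sox9, the factor that commits progenitors to cartilage, was highest in TUMOR. It stood at 17.7, 18.1 and 19.5 FPKM in TUMOR, 9.02, 9.67 and 9.98 FPKM in BM, 10.6, 10.1 and 8.35 FPKM in HOMING and 5.79, 5.31 and 9.25 FPKM in NC. No TUMOR library overlapped another group, BM and HOMING overlapped, and NC replicate 3 lay within the BM and HOMING range while the other NC libraries lay below it. Sox9 rose in TUMOR against NC by a log2 fold change of 1.31 ± 0.17 (edgeR adjusted p = 1.33e-05), and by 1.62 without NC replicate 3. In TUMOR against HOMING its log2 fold change was 0.92 ± 0.17 and in TUMOR against BM 0.91 ± 0.17, with adjusted p of 4.71e-04 and 3.46e-04 but under the 2-fold minimum. In BM against NC the log2 fold change was 0.41 ± 0.17, and 0.72 without NC replicate 3, and in HOMING against NC it was 0.39 ± 0.17, and 0.70 without that library. Krt8 and Krt19, keratins of simple epithelium, were also highest in TUMOR. Krt8 averaged 64.6 ± 25.3 FPKM in TUMOR, 6.29 ± 0.286 in BM, 1.38 ± 0.247 in HOMING and 0.0767 ± 0.0643 in NC (SD, n = 3 each). Krt19 averaged 21.6 ± 0.728 FPKM in TUMOR, 0.37 ± 0.052 in BM, 4.61 ± 0.505 in HOMING and 2.72 ± 1.26 in NC. Unlike Sox9, it was thus lower in BM than in NC. The rest of the epithelial list, Krt18, Cdh1, Krt5, Krt14, Cldn4 and Epcam, averaged at most 0.0633 FPKM in TUMOR. The part of keratin-expressing cells in the TUMOR levels of Sox9, and of Phex below, was not tested.

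Sox5, which binds DNA beside Sox9 at cartilage genes, was low but higher in all cells taken from mice than in culture. Its levels were 0.88, 1.16 and 1.16 FPKM in TUMOR, 1.41, 1.32 and 1.18 FPKM in BM, 1.25, 1.25 and 1.40 FPKM in HOMING and 0.51, 0.49 and 0.58 FPKM in NC. No NC library reached the lowest library of another group, whereas BM and HOMING overlapped and TUMOR lay just below both. Sox5 rose in BM against NC by a log2 fold change of 1.22 ± 0.13 (edgeR adjusted p = 4.33e-06) and in HOMING against NC by 1.19 ± 0.13 (adjusted p = 3.29e-06). In TUMOR against NC it had a log2 fold change of 0.89 ± 0.13 (adjusted p = 4.25e-05), under the 2-fold minimum, and it was called there, at 1.00, without TUMOR replicate 1. Sox6, the usual partner of Sox5, averaged at most 0.1 FPKM in any group.

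Between 48.0 and 89.1% of the Sox5 counts of a library fell on a transcript model that the authors assembled themselves, which carries no RefSeq name. With such models left out, an alternative chosen after seeing the data, Sox5 had a log2 fold change of 1.51 in BM against NC, 1.61 in HOMING against NC and 1.43 in TUMOR against NC. All of these were called. Sox9, Sp7, Alpl and Acan each had 1 deposited transcript, so no such choice arises for them.

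Spp1, or osteopontin, is an acidic phosphoprotein of bone matrix that binds mineral and that macrophages and other cells also secrete. It was the most abundant member, with more FPKM than 93.9 to 97.2% of the tested genes by group mean. Its levels were 254, 168 and 175 FPKM in TUMOR, 211, 212 and 220 FPKM in BM, 118, 117 and 131 FPKM in HOMING and 76.0, 80.3 and 168 FPKM in NC. BM and TUMOR overlapped and both lay above HOMING, while NC replicate 3 lay within 1 FPKM of the lowest TUMOR library and the other NC libraries lay below all others. Spp1 was called in no comparison. Its log2 fold change was 0.90 ± 0.26 in BM against NC (edgeR adjusted p = 0.00789), 0.76 ± 0.26 in TUMOR against NC (0.0177), 0.85 ± 0.26 in BM against HOMING (0.0132) and 0.70 ± 0.26 in TUMOR against HOMING (0.0346). In edgeR the calls against culture turned on NC replicate 3. Without it the log2 fold change of Spp1 was 1.39 in BM against NC and 1.24 in TUMOR against NC, and both were called. The call in BM against NC also turned on the method. With all libraries kept, limma, another test, called Spp1 there on log2(FPKM + 1), at 1.08 (limma adjusted p = 0.00169). It did not call Spp1 in TUMOR against NC. Without TUMOR replicate 1 the log2 fold change was 0.53 in TUMOR against NC (adjusted p = 0.0924) and 0.48 in TUMOR against HOMING (adjusted p = 0.16). Summed monocyte and macrophage markers, which belong to another source of Spp1, were 25.1 to 25.7 FPKM in TUMOR, 55.2 to 56.2 in BM, 204 to 332 in HOMING and 13.5 to 19.3 in NC, and their part in the Spp1 levels was not tested. Cd14 and Cd68 made up most of the sums outside HOMING, in cultured cells as well. Cd14 averaged 11.3 FPKM in TUMOR, 36.3 in BM and 9.98 in NC, and Cd68 12.4, 7.44 and 5.26. Adgre1, Ms4a7, C1qa, C1qb and C1qc were at 0 in every TUMOR library, and all of these but Adgre1 were at 0 in every NC library too. Of the 7 markers of this list that were tested, 2 rose and 0 fell in TUMOR against NC, beside 9.75% of all tested genes that rose. They were Csf1r, by a log2 fold change of 1.94 ± 0.34, and Cd68, by 1.12 ± 0.16. Csf1r averaged 0.51 ± 0.0819 FPKM in TUMOR and 0.123 ± 0.0404 in NC, and passed the filter through BM and HOMING.

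Acan, or aggrecan, is the large proteoglycan that gives cartilage its resistance to compression. It was low in all groups and lowest in culture, with 1.38, 2.13 and 1.91 FPKM in TUMOR, 1.38, 1.42 and 1.20 FPKM in BM, 1.89, 1.80 and 1.85 FPKM in HOMING and 0.21, 0.21 and 0.68 FPKM in NC. No NC library overlapped another group, HOMING lay above BM without overlap, and TUMOR spanned both. Acan rose in HOMING against NC by a log2 fold change of 2.21 ± 0.35 (edgeR adjusted p = 8.70e-05), in TUMOR against NC by 2.16 ± 0.35 (9.14e-05) and in BM against NC by 1.77 ± 0.35 (6.55e-04). NC replicate 3 had 230 counts, against 71 and 69 in the other NC libraries. Without it the log2 fold changes of Acan were 3.04 in HOMING against NC, 2.99 in TUMOR against NC and 2.60 in BM against NC. The 3 groups taken from mice were not called against one another, with log2 fold changes of 0.40 ± 0.31 in TUMOR against BM, -0.05 ± 0.31 in TUMOR against HOMING and -0.44 ± 0.31 in BM against HOMING. Sox9, Spp1 and Acan were each highest in replicate 3 among the NC libraries.

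Phex, a membrane endopeptidase of osteoblasts and osteocytes whose loss causes phosphate wasting and soft bone, was highest in TUMOR. It had 6.86, 5.85 and 6.39 FPKM in TUMOR, 1.33, 1.32 and 1.41 FPKM in BM, 3.09, 2.95 and 2.49 FPKM in HOMING and 1.29, 1.25 and 1.32 FPKM in NC. TUMOR lay above HOMING and HOMING above the remaining groups without overlap, and BM and NC met at 1.32 FPKM. Phex rose in TUMOR against NC by a log2 fold change of 2.17 ± 0.09 (edgeR adjusted p = 9.11e-10), in TUMOR against BM by 2.16 ± 0.09 (1.60e-09) and in TUMOR against HOMING by 1.14 ± 0.09 (3.03e-07). It also rose in HOMING against NC by 1.03 ± 0.09 (6.71e-07) and fell by 1.02 ± 0.09 on the log2 scale in BM against HOMING (1.36e-06). BM and NC differed by a log2 fold change of 0.00 ± 0.10 (adjusted p = 0.969).

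The level of Phex depends on a transcript model. From 81.2 to 94.4% of its counts per library fell on a transcript of 4213 bases that the authors assembled, and the rest on the RefSeq transcript of 6265 bases, at 19.3 to 81.2 counts per library. The assignment of this model to Phex, and of the assembled model to Sox5, is the authors' and could not be checked here. With RefSeq transcripts alone, Phex kept its calls in TUMOR against NC, at a log2 fold change of 1.38, and in TUMOR against BM, at 1.15. The calls near 2-fold were lost: the log2 fold change was 0.68 in TUMOR against HOMING (adjusted p = 0.161), 0.70 in HOMING against NC (0.141) and -0.46 in BM against HOMING (0.349). The last was also lost without HOMING replicate 1, at -0.95, or replicate 2, at -1.0 (just under 2-fold), and in the fit with no filter, at -0.99. The call in HOMING against NC was lost without HOMING replicate 1, at 0.95. Summed neutrophil and erythroid markers were highest in HOMING, as given above, and their part in the HOMING level of Phex was not tested.

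**Figure D3:**
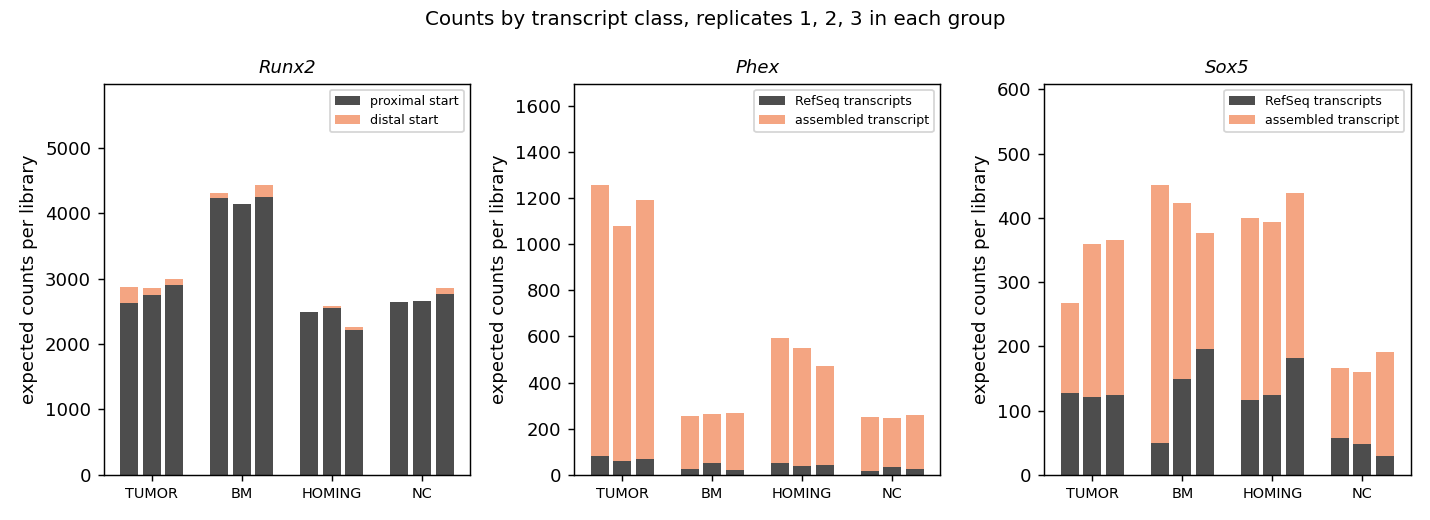
Expected counts per library (vertical axis, from 0) for Runx2, Phex and Sox5, with bars for replicates 1, 2 and 3 in each group, split by transcript class. Distal-start transcripts take at most 8.96% of Runx2, while the authors' assembled transcript takes 81.2 to 94.4% of Phex and 48.0 to 89.1% of Sox5.

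Alpl, the tissue-nonspecific alkaline phosphatase that removes the mineralization inhibitor pyrophosphate, did not pass the filter. Its levels were 0.25, 0.44 and 0.33 FPKM in TUMOR, 0.17, 0.17 and 0.12 FPKM in BM, 0.71, 0.49 and 0.65 FPKM in HOMING and 0.82, 0.51 and 0.71 FPKM in NC. HOMING and NC overlapped, both lay above TUMOR, and TUMOR lay above BM. Counts per library ranged over 26 to 47 in TUMOR, 13 to 19 in BM, 53 to 78 in HOMING and 57 to 92 in NC. In the fit with no filter, which covered 20956 genes, Alpl fell by 2.20 ± 0.28 on the log2 scale in BM against NC (edgeR adjusted p = 9.65e-06), where 12.1% of genes were called and 4.62% fell. In BM against HOMING it fell by 1.93 ± 0.28 (4.48e-05), beside 12.3% called and 8.37% that fell. In TUMOR against NC it fell by 1.17 ± 0.25 (9.69e-04), beside 16.3% called and 6.44% that fell, although the call was lost without TUMOR replicate 1, at -0.99. Alpl rose by 1.03 ± 0.30 in TUMOR against BM (0.00890), beside 15.1% called and 8.43% that rose. That call was lost without BM replicate 3, at 0.87, or without TUMOR replicate 2, at 0.80. In TUMOR against HOMING the log2 fold change of Alpl was -0.90 ± 0.26, under the 2-fold minimum, and it was called without TUMOR replicate 2, at -1.13, or without HOMING replicate 2, at -1.05. In HOMING against NC, where 15.8% of genes were called and 5.01% fell, it was -0.27 ± 0.24 (adjusted p = 0.401).

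Tnfrsf11b, or osteoprotegerin, also stayed under the filter. It had 0.26, 0.23 and 0.24 FPKM in TUMOR, 0.73, 0.69 and 0.60 FPKM in BM, 0.51, 0.66 and 0.69 FPKM in HOMING and 0.26, 0.32 and 0.39 FPKM in NC. BM and HOMING overlapped and lay above NC, and TUMOR was lowest but met NC at 0.26 FPKM. In the fit with no filter Tnfrsf11b fell by 1.58 ± 0.21 on the log2 scale in TUMOR against BM (edgeR adjusted p = 1.17e-05), where 6.66% of genes fell. It fell by 1.40 ± 0.21 in TUMOR against HOMING (6.07e-05), beside 12.9% of genes called and 7.45% that fell. Its log2 fold change was 0.99 ± 0.20 in BM against NC (7.57e-04), 0.80 ± 0.20 in HOMING against NC (0.00328) and -0.59 ± 0.22 in TUMOR against NC (0.0346), none of which reached 2-fold. BM against NC was called without NC replicate 3, at 1.16, or without BM replicate 3, at 1.07.

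RANKL itself, encoded by Tnfsf11, is the ligand that osteoprotegerin traps. It had 0, 2 and 1 counts in TUMOR, 17, 14 and 23 in BM, 20, 23 and 30 in HOMING and 10, 1 and 12 in NC. TUMOR thus had 3 counts in all, and NC replicate 2 lay with the TUMOR libraries. The ratio of Tnfrsf11b to Tnfsf11 FPKM was 11.5 and 24 in the TUMOR libraries with a RANKL count, 4.29, 4.93 and 2.50 in BM, 2.43, 2.75 and 2.23 in HOMING and 2.60, 32.0 and 3.25 in NC. TUMOR replicate 1, with no RANKL count, has no ratio. Both TUMOR ratios lay above all of BM and HOMING, while NC spanned the other groups. Two-sided exact permutation tests of the log2 ratio gave p of 0.2 in TUMOR against BM, TUMOR against HOMING, BM against HOMING and HOMING against NC, 0.6 in TUMOR against NC and 0.8 in BM against NC. None of these designs could reach 0.05, since 3 against 3 libraries cannot go below 0.1 and 2 against 3 cannot go below 0.2, so the tests do not show whether the ratios differ. The RANKL receptor Tnfrsf11a, carried by osteoclast precursors, averaged 0.0667 FPKM in TUMOR, 0.0267 in BM and 0.527 in HOMING, and was at 0 in NC. Summed markers of osteoclasts were 18.1 to 21.1 FPKM in TUMOR, 19.2 to 20.5 in BM, 33.8 to 46 in HOMING and 19.0 to 21.4 in NC. Outside HOMING these sums were mostly Nfatc1 and Acp5, in cultured cells as well. Mmp9 averaged 14.5 ± 4.71 FPKM in HOMING, against 0.53 ± 0.0265 in TUMOR, 2.86 ± 0.254 in BM and 0.833 ± 0.403 in NC. Calcr, Ocstamp, Dcstamp, Oscar and Atp6v0d2 averaged at most 0.273 FPKM in any group, so the sums do not measure osteoclasts.

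**Figure D4:**
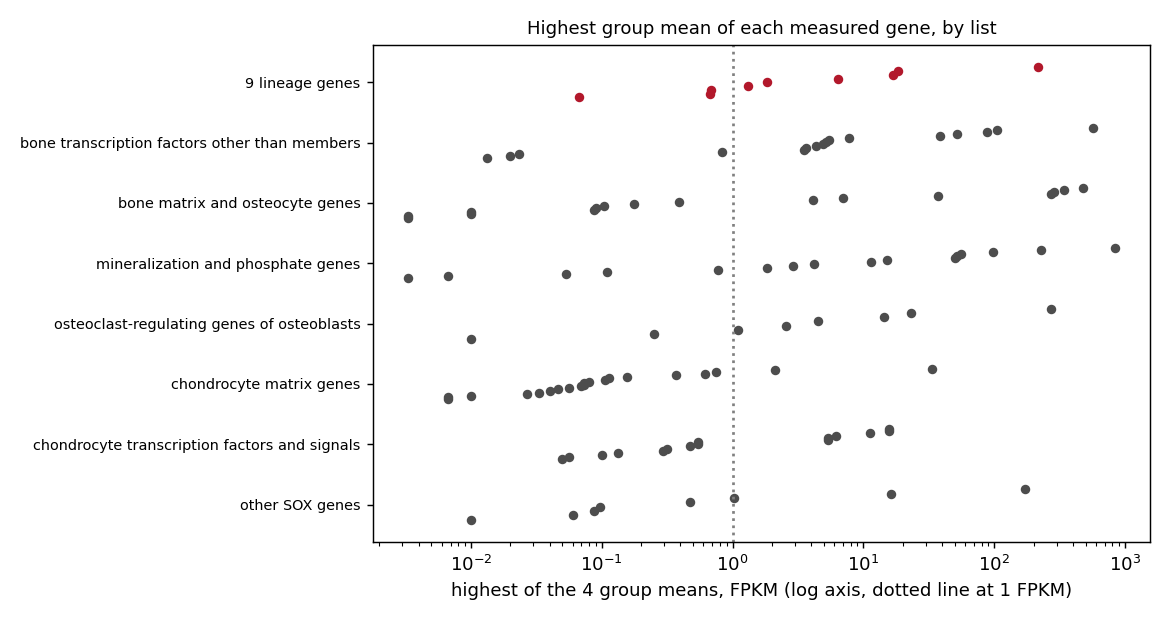
Highest of the 4 group means (FPKM, log axis) of each measured gene in the 9 lineage genes and 7 lists of related genes; each point is 1 gene and the dotted line marks 1 FPKM. Of 20 chondrocyte matrix genes 2 passed the filter, and 7 of 16 bone matrix and osteocyte genes did.

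Other genes of these programmes were described from 7 lists. Among 16 bone transcription factors other than the members 12 passed the filter, and 1 call was made over the 6 comparisons. Of all tested genes, 10.4 to 16.4% were called per comparison. Tcf7, a nuclear partner of beta-catenin, fell to 2.15 ± 0.01 FPKM in BM, against 4.23 ± 0.136 in NC (SD, n = 3; log2 fold change -1.06). Atf4, which osteoblasts need for amino acid supply, averaged 304 ± 8.29 FPKM in TUMOR, 565 ± 6.72 in BM, 309 ± 2.90 in HOMING and 489 ± 15.4 in NC, and its differences stayed under 2-fold. The median log2 fold change of the list lay at -0.35 in TUMOR against NC, -0.05 in BM against NC and -0.17 in HOMING against NC, where the median of all tested genes was 0.01, 0.02 and 0.01.

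Bone matrix genes split by level. Col1a1, the main collagen of bone and of fibroblasts, averaged 211 ± 33.1 FPKM in TUMOR, 212 ± 7.04 in BM, 179 ± 12.5 in HOMING and 270.2 ± 10.9 in NC. By contrast Bglap, Bglap2, Bglap3, Ibsp, Dmp1, Mepe, Sost, Omd and Postn, most of them late osteoblast or osteocyte genes, did not exceed 0.53 FPKM in any library. Of the 7 that passed the filter, against NC none rose and 2 fell in TUMOR, 3 in BM and 2 in HOMING. Of all tested genes, 6.65% fell in TUMOR against NC, 3.57% in BM against NC and 4.69% in HOMING against NC. Ogn, a small leucine-rich proteoglycan, averaged 2.18 ± 0.165 FPKM in TUMOR, 0.37 ± 0.0173 in BM, 0.943 ± 0.0851 in HOMING and 4.15 ± 0.345 in NC, and fell in each group against NC. Against the cells from marrow Ogn rose in TUMOR, by a log2 fold change of 2.52 ± 0.13 over BM and 1.20 ± 0.12 over HOMING. Sparc, which binds collagen and calcium, averaged 151 ± 3.07 FPKM in BM, against 344 ± 42.6 in NC. Mgp, an inhibitor of calcification, averaged 1.63 ± 0.566 FPKM in TUMOR, 1.62 ± 0.0833 in BM, 1.49 ± 0.636 in HOMING and 6.94 ± 4.47 in NC, and fell in all groups against NC, whose own libraries differed widely.

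Of the 16 mineralization and phosphate genes 11 passed the filter. Phospho1, the phosphatase that supplies phosphate inside matrix vesicles, was also highest in TUMOR. It averaged 11.5 ± 1.22 FPKM in TUMOR, 2.69 ± 0.136 in BM and 4.33 ± 0.318 in HOMING and 4.52 ± 0.784 in NC. In TUMOR it rose by a log2 fold change of 2.06 ± 0.13 over BM, 1.38 ± 0.12 over HOMING and 1.21 ± 0.12 over NC. Vdr, the vitamin D receptor, averaged 1.34 ± 0.0520 FPKM in TUMOR, 0.94 ± 0.115 in BM, 1.25 ± 0.0252 in HOMING and 2.90 ± 0.115 in NC, and fell in every group against NC. Cyp27b1, which makes active vitamin D, fell to 2.04 ± 0.227 FPKM in TUMOR and 1.78 ± 0.157 in HOMING, against 4.23 ± 0.0781 in NC. Slc20a1, a sodium phosphate transporter, fell to 24.6 ± 1.39 FPKM in TUMOR, against 55.9 ± 1.41 in BM and 54.0 ± 5.88 in NC. The calcium-binding annexin Anxa6 reached 15.2 ± 2.58 FPKM in HOMING, against 6.93 ± 0.676 in NC, and averaged 4.74 ± 0.131 in BM. Anxa2 averaged 840 ± 29.4 FPKM in TUMOR, 406 ± 9.02 in BM, 642 ± 26.3 in HOMING and 715 ± 62.4 in NC. It was called only in TUMOR against BM, at a log2 fold change of 1.01 ± 0.07. Against NC the log2 fold change was 0.11 ± 0.06 in TUMOR and -0.90 ± 0.07 in BM.

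Among 8 genes by which osteoblasts act on osteoclasts 5 passed. Csf1, the growth factor of the macrophage and osteoclast line, averaged 87.1 ± 5.20 FPKM in TUMOR, 184 ± 4.98 in BM, 118 ± 0.0929 in HOMING and 272 ± 33.1 in NC. It fell in TUMOR against NC, in TUMOR against BM and in HOMING against NC. In TUMOR against NC the axon guidance signal Sema3a rose by a log2 fold change of 1.17 ± 0.14 and the ephrin ligand Efnb2 fell by 1.10 ± 0.17 on the log2 scale.

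Cartilage genes other than the members were scarce. Of 22 chondrocyte matrix genes 20 had a count, 18 of those did not exceed 0.84 FPKM in any library, and Col2a1, the main cartilage collagen, averaged at most 0.0733 FPKM in a group. The 2 that passed were Vcan, a proteoglycan of loose tissue, which was not called, and Matn2, a filament-forming matrix protein. Matn2 rose to 2.12 ± 0.454 FPKM in TUMOR and to 1.43 ± 0.10 in BM, against 0.717 ± 0.0153 in HOMING, and it fell in HOMING against NC, which had 1.41 ± 0.275. Among 15 chondrocyte transcription factors and signals 6 passed. Runx3, a relative of Runx2 in cartilage maturation, averaged 1.55 ± 0.370 FPKM in TUMOR, 2.26 ± 0.223 in BM, 3.14 ± 0.224 in HOMING and 5.37 ± 0.314 in NC, and fell in TUMOR against both HOMING and NC and in BM against NC. Hdac4, a restraint on Runx2 in growth plate cartilage, fell to 5.18 ± 0.520 FPKM in TUMOR and 3.85 ± 0.0416 in HOMING, against 11.2 ± 1.49 in NC. Among 10 other SOX genes 8 had a count and 2 passed. Sox4 averaged 62.9 ± 13.2 FPKM in TUMOR, 145 ± 6.22 in BM, 110 ± 5.34 in HOMING and 173 ± 28.6 in NC. It fell in TUMOR against BM and NC, opposite in sign to Sox9. Sox12, the other that passed, was not called. Sox11 did not pass, was picked after its values were seen, and like Sox9 was highest in TUMOR. It averaged 1.03 ± 0.283 FPKM in TUMOR, 0.31 ± 0.01 in BM, 0.137 ± 0.0252 in HOMING and 0.167 ± 0.0451 in NC.

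For each member called in at least 1 comparison, the tested genes of most similar pattern were ranked by the root mean square difference of centred log2(FPKM + 1) over the 12 libraries. Phex was nearest to Kctd11 (0.083), Slc5a3 (0.0975) and Mfsd9 (0.117). The group means of Kctd11 were 8.93 FPKM in TUMOR, 2.06 in BM, 4.12 in HOMING and 2.11 in NC, the same order as Phex but for the 2 lowest groups. Sox9 was nearest to Fhod3 (0.148), Lmo7 (0.148) and Olfml3 (0.151), and Olfml3 averaged 25.4 FPKM in TUMOR, 15.8 in BM, 16.6 in HOMING and 12.1 in NC. Sox5 was nearest to Nup133 (0.0616), Apc (0.0649) and C1galt1c1 (0.0654), and Acan to Mlf2 (0.0988), Tmem158 (0.109) and Dusp10 (0.112). The pseudocount shrinks the pattern of members near 1 FPKM, so abundant genes with smaller folds can lie nearest to Sox5 and Acan.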

How the data were processed

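RNA of 12 sorted stromal cell samples was extracted with Trizol and made into Illumina TruSeq libraries, per the labels' protocols. Reads were aligned with Bowtie 0.12.2 to genome build mm8, per the submitters' processing notes. Which program counted them is a detail not given in the sources used here. Per transcript, the authors deposited expected counts, which are estimated and not normalized, and FPKM rounded to 2 decimals, with transcript length as a further column. The tables include transcripts assembled by the authors.

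Expected counts and FPKM were summed per Entrez gene, and unlisted transcripts were set to 0. Of 19679 Entrez numbers 19629 matched a symbol. The 1322 genes without one held 2.08 to 2.65% of counts. A filter of 1 FPKM or more in 3 libraries or more left 12314 genes, whose rounded counts were scaled by TMM (factors 0.929 to 1.039). EdgeR 4.0.16 under R 4.3.3 fitted the 4 groups together, with two-sided quasi-likelihood F-tests and Benjamini-Hochberg adjustment over all tested genes. Sp7, Alpl and Tnfrsf11b come from the same fit with no filter (20956 genes). The code was tested on simulated data.

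The members, lists and tests were chosen with earlier results of these data known. Named genes were the members, up to 3 called genes per list and comparison with the smallest adjusted p (else the most abundant), and the 3 genes nearest each called member. Genes named beyond this rule, such as keratins, late osteoblast genes, Col1a1, Col2a1, Sox6 and the RANKL pair, were picked as markers or partners after values were seen. Same-numbered replicates of different groups had deviations correlated at -0.12 to 0.22, and differently numbered ones at -0.15 to 0.20. With 3 libraries per group this check cannot tell whether the numbers pair samples. Alternatives were DESeq2 1.42.0, limma 3.58.1 on log2 FPKM, other scalings and filters, single transcripts, 2-group fits, a replicate block and each library left out; the RefSeq-only and NC-expressed restrictions and the no-filter variants were added after seeing the data. Tables and plots used Python 3.11.15, pandas 2.3.3, scipy 1.17.1 and matplotlib 3.10.9.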

Additional observations from a re-analysis of the deposited data

How the results depend on the processing

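Of 822 recomputed values over 54 comparisons of single members, 770 kept direction and side of the threshold, 17 lost a call, 12 gained one and 23 changed sign. The member counts reported were 3 in TUMOR against NC, 2 in BM against NC, 3 in HOMING against NC and 1 in each comparison among TUMOR, BM and HOMING. With DESeq2 these counts were the same. Without the minimum fold they were 5 in TUMOR against NC, 5 in BM against NC, 4 in TUMOR against HOMING, 4 in TUMOR against BM and 3 in BM against HOMING. In the same order 73.6, 66.6, 55, 69.6 and 58.1% of all tested genes were then called, so most genes pass at that setting. Limma on log2(FPKM + 1), which shrinks folds of genes near 1 FPKM, gave 1 in BM against NC (Spp1), 1 in HOMING against NC, 0 in TUMOR against HOMING and 0 in BM against HOMING. The shares of all genes called there were 5.08, 10.1, 7.93 and 6.94%. With at least 5 FPKM in 3 libraries, or with genes of at least 1 FPKM in NC alone, Sox5 and Acan were not tested, leaving 1 in HOMING against NC and 0 in BM against NC. Of all genes, 10.3 and 7.55% were called with the 5 FPKM filter, and 8.93 and 6.72% with the NC restriction. With no filter there were 2 in TUMOR against HOMING and 3 in TUMOR against BM, beside 12.9 and 15.1% of all genes. RefSeq transcripts alone gave 0 in TUMOR against HOMING and 0 in BM against HOMING, where Phex was lost, beside 10.3 and 10% of all genes. EdgeR with all transcripts and DESeq2 call 1 in each.

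Leaving out 1 library gave 3 to 4 members in TUMOR against NC, 2 to 3 in BM against NC and in HOMING against NC, 1 to 1 in TUMOR against HOMING and TUMOR against BM, and 0 to 1 in BM against HOMING (0 without HOMING replicate 1 or 2). With the replicate number as a block the counts were 3, 2, 3, 1, 1 and 1, and the block changed no call of a single member. Whether the replicate numbers pair samples is not given in the labels.

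The log2 ratio of Tnfrsf11b to Tnfsf11 differed by -0.78 in BM against NC, by 0.15 with 0.1 FPKM added to both genes, and by -1.44 to 0.37 with 1 library left out, 0.37 being without NC replicate 2. Sign changes of single members were all uncalled. Leaving out 1 library spread the log2 fold change of Sp7 over -0.64 to 0.14 in HOMING against NC and -0.05 to 0.81 in BM against NC, of Spp1 over -0.15 to 0.54 in HOMING against NC, of Phex over -0.01 to 0.03 in BM against NC, of Acan over -0.17 to 0.11 in TUMOR against HOMING, and, in BM against HOMING, of Sox9 over -0.08 to 0.09 and of Sox5 over -0.03 to 0.10. Other sign changes were Runx2 in TUMOR against NC at -0.00 with no filter, and Phex in BM against NC at -0.01 with its top transcript and -0.00 with 2 groups fitted. In BM against HOMING, Sox9 was -0.01 with either limma fit, -0.02 with library size alone and -0.00 at 5 FPKM, and Sox5 was -0.00 with library size alone and -0.10 with RefSeq transcripts. Beyond the constructions named, the cause was not tested. Depth limits Sp7 (1 to 8 counts per library) and Tnfsf11 (0 to 30), for which differences are weakly measured.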

Other observations

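Wnt5a, a secreted Wnt signal of osteoblasts that did not pass the filter, was listed at 0 in all 3 NC libraries. It averaged 1.11 ± 0.428 FPKM in TUMOR, 0.22 ± 0.01 in BM and 0.0433 ± 0.0153 in HOMING (SD, n = 3 each). In the fit with no filter it was called higher in TUMOR against HOMING, with a log2 fold change of 4.59 ± 0.33, and in TUMOR against BM, with 2.23 ± 0.26. It was chosen after its values were seen.

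Eng, a co-receptor of TGF-beta used as a stromal marker, averaged 13.9 ± 4.66 FPKM in TUMOR, 4.75 ± 0.324 in BM, 2.34 ± 0.494 in HOMING and 0.943 ± 0.0902 in NC. Summed adipocyte markers were 13.4 to 15.8 FPKM in TUMOR, 17.8 to 20.4 in BM, 16.7 to 18.3 in HOMING and 21.1 to 21.6 in NC, with no overlap of TUMOR with any other group. These sums were mostly Lpl and Cebpa, and Adipoq, Plin1, Cidec and Lep averaged at most 0.04 FPKM in any group. Not all of the list was lowest in TUMOR: Pparg averaged 1.79 ± 0.215 FPKM there, against 0.613 ± 0.0379 in BM. Summed endothelial markers stayed at or under 4.55 FPKM, skeletal muscle markers at or under 0.88 FPKM and lymphocyte markers at or under 2.99 FPKM in all libraries.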
